A study of Drosophila melanogaster with 8 samples.

Results

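The genes described here are 10 Drosophila genes for proteins that haemocytes, the fly's blood cells, deposit into the extracellular matrix or the haemolymph. They are Hml, LanA, LanB1, LanB2, Col4a1, vkg, SPARC, Ppn, Tig and Pxn, named by symbol among 13922 protein-coding genes on the 6 main chromosome arms. Chromatin immunoprecipitation followed by sequencing was used to map P-p38, which is p38, a MAP kinase that responds to stress, in its phosphorylated and active state, in S2 cells, a Drosophila line with haemocyte-like features. All cells were of wild-type genotype and grown at 25 °C. The treated group received 10 mM H2O2 for 30 min, and the control group received medium alone. Each group has 2 immunoprecipitated libraries with a list of peaks. The inputs, 2 in each group, come without peaks and are not analysed here. The labels do not say whether replicates were separate cultures, so any spread given may be technical.

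The basement membrane is a thin sheet of matrix under epithelia and around organs. Its core is a network of laminin trimers, each built from an alpha, a beta and a gamma chain, and a network of collagen IV. In the fly embryo migrating haemocytes make and deposit much of this material. p38 is switched on by oxidative and other stress, and the comparison asks where on the genome its phosphorylated form is found with and without H2O2.

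The unit of measurement is the peak, an interval in which the authors' peak caller found more reads than in its background. The lowest -log10 p-value was 2.0 and 2.01 in the control lists and 2.0 and 2.01 in the H2O2 lists. A peak in them need not pass a q-value of 0.05. At the 10 genes the -log10 q went down to 0.376 in control (SPARC, replicate 2) and 0.552 in H2O2 (Ppn, replicate 2). For each gene and library the share of the gene's length under peaks, the number of summits (the highest point of each peak) over the gene or within 2 kb of it, and the fold percentile were taken. The fold is the authors' enrichment of a peak, and its percentile is its rank within its own list, so it is not a level that can be compared across libraries. The control lists held 4314 and 2988 peaks on the arms and the H2O2 lists 6434 and 4019. Peaks covered 2.52 and 1.70 Mb in control and 2.47 and 1.41 Mb in H2O2, and median peak widths were 324 and 354.5 bp against 296 and 270 bp. Control peaks were thus wider, and over all protein-coding genes the mean covered share was 3.1% and 3.21% in control against 1.6% and 1.5% after H2O2. Both differences run the same way as the higher control shares given below, and their part in those was not tested. The alternative that counts 200 bp around each summit gives all peaks the same width. It follows the summit counts and does not test this. The read depth is unknown, so no precision per peak can be given. With 2 libraries against 2 the smallest p of an exact two-sided permutation test is 0.333, and no comparison of a single gene can pass 0.05.

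Peaks at the 10 genes were concentrated on a few of them and covered more of those genes in control than after H2O2. The control lists had 35 and 36 peaks over or within 2 kb of the genes and the H2O2 lists 21 and 19. This was 0.811% and 1.20% of all control peaks and 0.326% and 0.473% of all H2O2 peaks. Of the 129420 bp that the 10 genes span, peaks covered 18.4% and 17.5% in control and 4.79% and 5.16% in H2O2. Peaks wider than 1000 bp numbered 6 and 4 in the control libraries and 0 in both H2O2 libraries. At a q-value of 1e-05 or less 6 and 8 of the control peaks were left and none of the H2O2 peaks, while 21.6% and 25.7% of all control peaks and 9.70% and 7.61% of all H2O2 peaks met that limit.

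A gene was called in a library when at least 1 bp of a peak, whatever its q-value, lay over it or within 2 kb of it. Both control libraries called 5 of the 10 genes (Hml, LanA, SPARC, Ppn and Pxn), where 13.2% of all protein-coding genes were called in both. Both H2O2 libraries called 4 (Hml, LanA, Ppn and Tig), against 9.19% of all genes. SPARC was called in both control libraries and neither H2O2 library, as were 7.02% of all genes. Tig was called in both H2O2 libraries and neither control library, as were 3.64% of all genes. Its call in H2O2 replicate 2 rests on a single peak with a q-value above 0.05 (-log10 q of 0.955). Covered shares were higher in both control libraries than in either H2O2 library at 5 genes (Hml, LanA, SPARC, Ppn and Pxn), against 4.98% of all genes. The reverse order held at Tig alone, against 3.66% of all genes.

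Gene length bears on these counts, since a long gene meets more peaks. The members range from 2758 to 28610 bp, and 4993 protein-coding genes lie in that range. Both control libraries called 17.4% of those genes, and both H2O2 libraries 11.7%. Control shares lay above H2O2 shares at 7.59% of them, and the reverse held at 5.31%. The median difference in covered share, control minus H2O2, was 3.81 percentage points over the 10 genes and 0 over all protein-coding genes, most of which have no peak over them in any library, so that this 0 is no contrast. The 10 genes were listed with earlier results of these data known, and no test was made over the list.

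**Figure D1:**
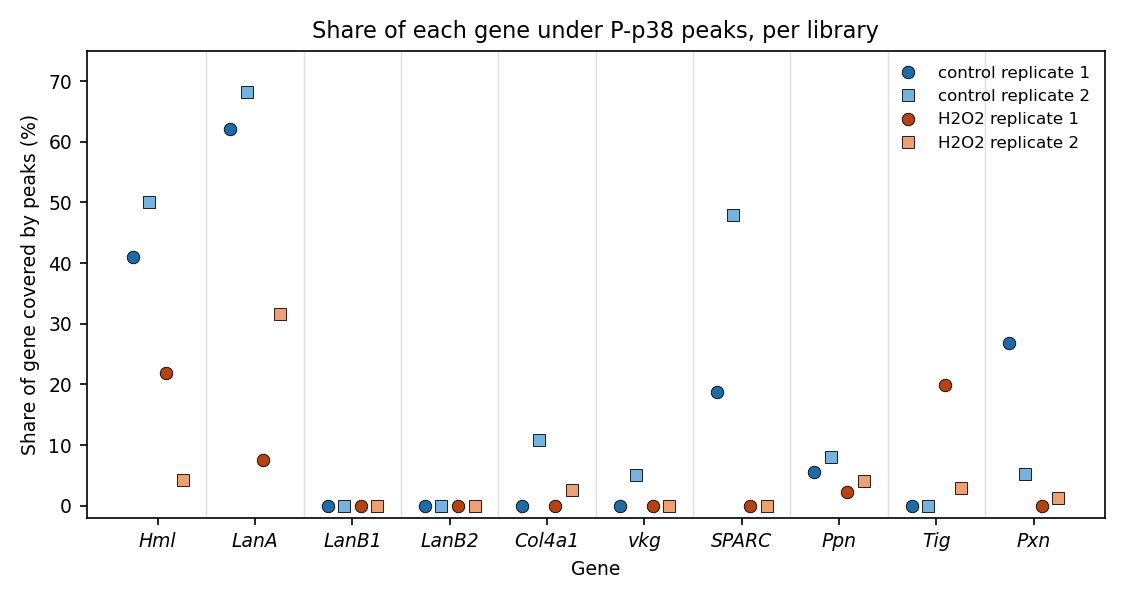
Share of each gene's length under P-p38 peaks (vertical axis, %) for the 10 genes (horizontal axis), with 1 point per library, blue for control and orange for H2O2. LanA and Hml reach 62.1% and 68.2%, and 41.0% and 50.1%, in the control libraries, LanB1 and LanB2 stay at 0 in all libraries, and Tig is above 0 in the H2O2 libraries only.

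The laminin genes differed sharply from one another. LanA, the alpha chain, was the most covered of the 10 genes in both control libraries, while no library had a peak over or within 2 kb of LanB1, the beta chain, or LanB2, the gamma chain. LanA lies on 3L (dm6, 6203831 to 6218022, 14192 bp), LanB2 on 3L (9614914 to 9623980, 9067 bp) and LanB1 on 2L (7811438 to 7820771, 9334 bp). The nearest protein-coding neighbours of LanB1 (Cdc14 and CG7115) and of LanB2 (Tmc and CG3335) were also at 0 in the 4 libraries.

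LanA lay under peaks over 62.1% and 68.2% of its length in control replicates 1 and 2, against 7.57% and 31.6% in H2O2 replicates 1 and 2. Both control libraries lay above both H2O2 libraries. The means were 65.2% ± 4.34 (SD, n = 2) and 19.6% ± 17.0 (SD, n = 2), and the exact permutation p was 0.333. Among all protein-coding genes LanA's share stood at percentile 98.2 and 98.4 in control and at 94.6 and 98.8 in H2O2. H2O2 replicate 2 therefore ranked LanA as highly as the control libraries did, although it covered less of the gene.

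The number of summits did not follow the covered share. LanA had 4 and 8 summits in control and 4 and 10 in H2O2, and the groups overlapped. The widest control peaks were 4772 bp in replicate 1 (6206832 to 6211603) and 3394 bp in replicate 2 (6208160 to 6211553), while the widest H2O2 peaks were 333 and 799 bp. The narrowest control peaks were 213 and 313 bp. With each peak replaced by 200 bp around its summit, the mean share of LanA was 1.41 percentage points higher in H2O2 than in control. That setting follows the summit counts, and the part of peak width in the difference was not tested.

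Control peaks filled the left part of LanA. With the gene cut into 3 equal parts, control peaks lay over 91.0% and 90.1% of the left part, 68.8% and 83.7% of the middle part and 26.5% and 31.0% of the right part. The H2O2 shares from left to right were 17.2%, 5.56% and 0% in replicate 1 and 28.9%, 36.7% and 29.2% in replicate 2. Peaks of both control libraries shared 50.9% of the gene and those of both H2O2 libraries 1.56%. Every one of the 4 peaks of H2O2 replicate 1 overlapped a peak of both control libraries, and 9 of the 10 peaks of replicate 2 overlapped at least 1 control peak. Some summits fell close together across treatments. The closest pair across the groups lay 7604 and 7616 bp from the left end, in control replicate 2 and H2O2 replicate 2. Of the 8 control replicate 2 summits, 5 lay within 200 bp of an H2O2 replicate 2 summit. Of the 4 control replicate 1 summits 1 did, and 0 lay that close to a summit of control replicate 2 or H2O2 replicate 1. No library had a peak over the left neighbour CG8219, which ends 54 bp from LanA, nor over CG33946 on the right.

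Fold percentiles of the strongest LanA peak were 86.9 and 79.0 in control and 16.9 and 87.8 in H2O2. The H2O2 replicates thus disagreed: all 4 peaks of replicate 1 ranked in the lowest part of their list, from 5.50 to 16.9. At a q-value of 1e-05 or less control peaks still covered 51.8% and 52.3% of LanA, and no H2O2 peak was left.

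**Figure D2:**
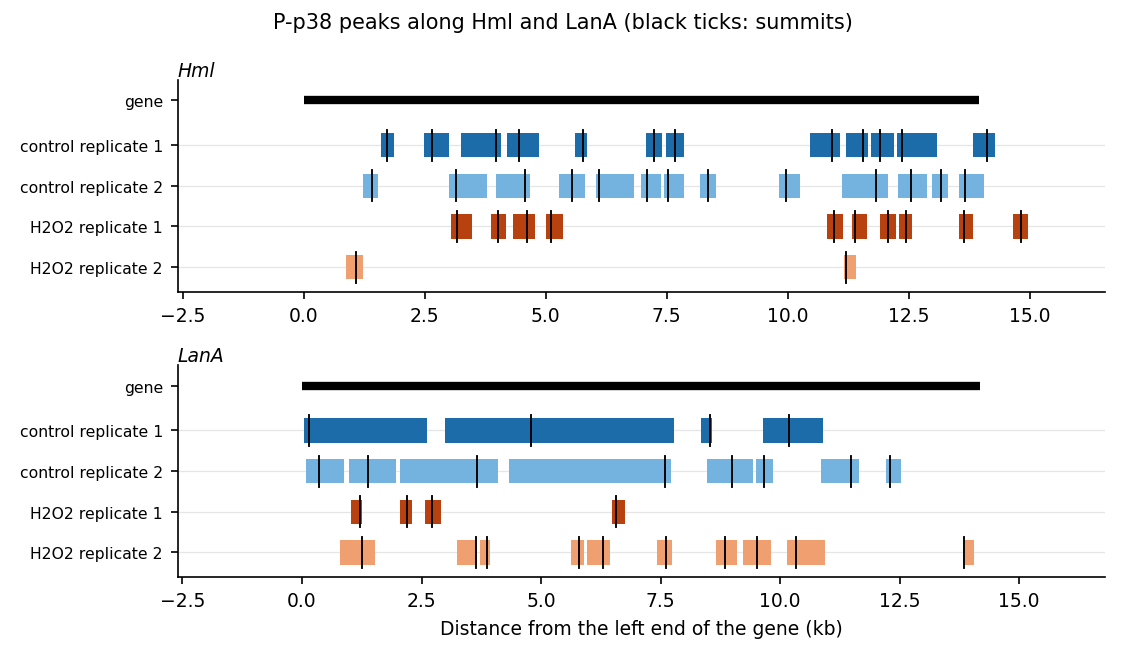
Peaks (coloured bars) and summits (black ticks) of the 4 libraries along Hml and LanA, by distance from the left end of the gene in kb, with the gene as a black bar. Control peaks up to 4772 bp wide fill the left part of LanA, and 12 and 13 narrower control peaks are spread along Hml, which has 10 and 2 peaks in the H2O2 libraries.

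The collagen IV genes carried few peaks, and those came mostly from a single library. Col4a1 and vkg encode the alpha1 and alpha2 chains of collagen IV and lie next to each other on 2L, head to head, with vkg at 5012144 to 5028191 (16048 bp) and Col4a1 at 5029609 to 5037279 (7671 bp). No library had a peak in the 1417 bp between them.

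Col4a1 was covered over 0% and 10.8% in the control libraries against 0% and 2.67% after H2O2. The groups overlapped, with both libraries of replicate number 1 at 0. The 3 peaks of control replicate 2 had summits 4046, 4507 and 5073 bp from the left end, and the peak of H2O2 replicate 2 had its summit at 5550 bp, overlapping none of them. The highest fold percentile among these peaks was 47.9.

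Over vkg the covered share was 5.03% in control replicate 2 and 0% in the other libraries. Its peaks there had summits 1820 and 2277 bp from the left end, which is the end away from Col4a1, and a further one lay 1753 bp outside the gene, over Tfb5 and CG31917. The strongest stood at percentile 73.5. At a q-value of 1e-05 or less neither collagen gene had a peak in any library.

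Among the proteins that bind or modify collagen IV, SPARC and Pxn were covered more in control. SPARC encodes a small collagen-binding glycoprotein and is the shortest of the 10 genes (3R, 26869238 to 26871995, 2758 bp). Its covered share was 18.7% and 47.9% in control and 0% in both H2O2 libraries. The groups did not overlap, although the control libraries differed by more than 2-fold. The means were 33.3% ± 20.7 (SD, n = 2) and 0% (n = 2), with an exact permutation p of 0.333.

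SPARC had 2 and 4 summits within 2 kb in control and none after H2O2. Replicate 1 had peaks with summits 614 and 988 bp from the left end, and both fell under a single peak of 1455 bp in replicate 2 (26868894 to 26870348), whose summit lay at 164 bp. Peaks of both control libraries shared 17.4% of the gene. The right of 3 equal parts of the gene was at 0 in every library.

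SPARC has a close neighbour on its left, the histone variant gene His2Av, 17 bp away. The wide peak of control replicate 2 also covered 327 bp of His2Av, and the same library had 2 further peaks on that gene, so that 51.7% of His2Av was covered there. Control replicate 1 had no peak over His2Av, and its peaks at SPARC lay inside SPARC. The strongest SPARC peaks stood at percentile 56.0 and 77.7, the latter being a peak over His2Av 1941 bp outside SPARC.

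Pxn encodes peroxidasin, the enzyme that cross-links collagen IV, and is the longest of the 10 genes (3L, 2601455 to 2630064, 28610 bp). Peaks covered it over 26.9% and 5.17% in the control libraries against 0% and 1.19% after H2O2. Control lay above H2O2, with means of 16.0% ± 15.4 (SD, n = 2) and 0.596% ± 0.843 (SD, n = 2) and an exact permutation p of 0.333. The control mean rests on replicate 1: H2O2 minus control was -15.4 percentage points with it and -4.58 without it.

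The summits counted 15 and 4 in control and 0 and 1 in H2O2. In replicate 1 of control 75.1% of the left of 3 equal parts of Pxn was under peaks, 5.59% of the middle part and 0% of the right part. In control replicate 2 the left part held 15.5% and the others 0%. All 4 peaks of control replicate 2 overlapped peaks of replicate 1, and a pair of summits lay 14 bp apart, at 7634 and 7648 bp from the left end. The left-most peak of replicate 1 also ran over the end of CG16986, which overlaps Pxn and was covered over 40.9% there and 0% in the other libraries. Pxn peaks ranked low in control replicate 2, at percentile 25.9 to 36.8, and up to 75.5 in replicate 1. At a q-value of 1e-05 or less a single peak was left at Pxn, the left-most one of control replicate 1, with its summit 257 bp outside the gene. The right neighbour CG42245, 1650 bp away, was covered over 7.91% and 1.95% in control and 0% after H2O2.

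Ppn and Tig, further matrix glycoproteins, showed different arrangements. Ppn encodes papilin, a large glycoprotein of the basement membrane (3R, 28520665 to 28540324, 19660 bp). The covered share was 5.56% and 8.0% in control and 2.32% and 4.13% in H2O2. Control lay above H2O2 by a small margin, 6.78% ± 1.72 (SD, n = 2) against 3.22% ± 1.28 (SD, n = 2), with an exact permutation p of 0.333. Summit counts overlapped, with 2 and 1 in control and 2 and 4 in H2O2, and with 200 bp around each summit the mean share was 1.21 percentage points higher in H2O2.

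The 2 control libraries placed their peaks at the same spot of Ppn. Their strongest summits lay 18992 and 18970 bp from the left end, 22 bp apart, in peaks at 28539401 to 28539895 and 28538425 to 28539997. These stood at percentile 93.1 and 92.3, the highest of any peak at the 10 genes in either control library, with folds of 2.18 and 2.62 by the authors' measure. H2O2 peaks were scattered along the gene. Replicate 1 had summits at 9067 and 12687 bp, replicate 2 had summits at 1390, 13892 and 18474 bp and one 27 bp past the right end, and no H2O2 peak overlapped a peak of the other H2O2 library. The H2O2 peak with its summit at 18474 bp overlapped control peaks and ranked at percentile 8.76.

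Tig encodes tiggrin, a ligand of integrins (2L, 6415179 to 6423310, 8132 bp). No control library had a peak over it or within 2 kb of it. H2O2 replicates 1 and 2 covered it over 19.9% and 2.91%, a mean of 11.4% ± 12.0 (SD, n = 2), and the exact permutation p was 0.333. Both H2O2 libraries lay above control, but they differed from each other by more than their mean differed from control.

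The H2O2 peaks at Tig were not the same in both libraries. Replicate 1 had summits at 1185, 2788, 4268 and 5659 bp from the left end and one 1420 bp outside the gene, and replicate 2 had a single summit at 7267 bp, overlapping none of them. The strongest stood at percentile 89.6 in replicate 1 and 27.1 in replicate 2. No peak at Tig met a q-value of 1e-05. The highest -log10 q was 4.03 in replicate 1, and the peak of replicate 2 had 0.955. CG13982, which overlaps the left end of Tig, was covered over 9.53% in H2O2 replicate 1 and 0% elsewhere.

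**Figure D3:**
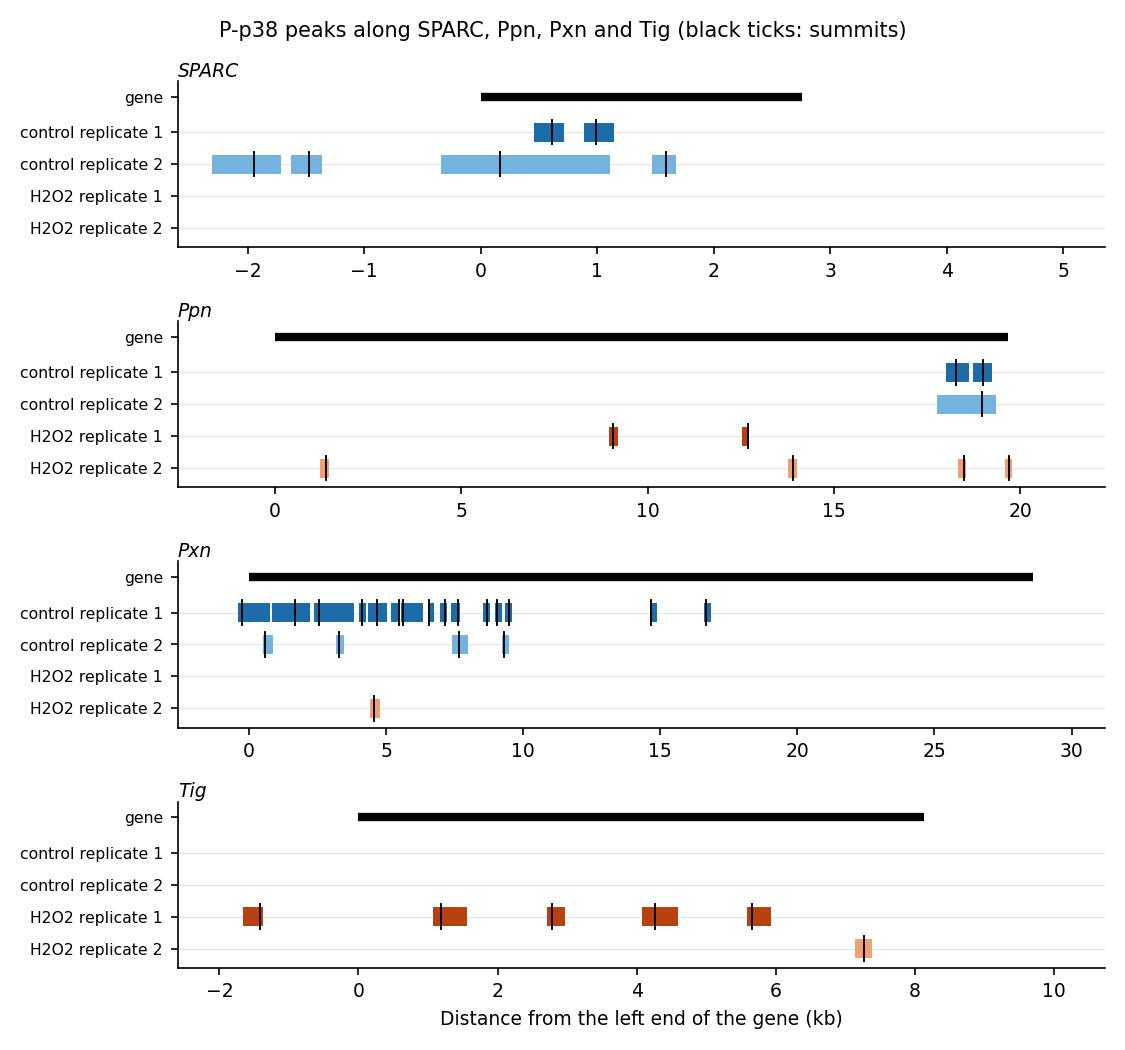
Peaks (coloured bars) and summits (black ticks) of the 4 libraries along SPARC, Ppn, Pxn and Tig, by distance from the left end of the gene in kb, with the gene as a black bar and a scale of its own for each gene. Control summits at 18992 and 18970 bp coincide in Ppn, control peaks gather in the left part of Pxn, and Tig has 5 and 1 peaks in the H2O2 libraries and none in control.

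Hml carried many separate peaks along its whole length. The gene encodes hemolectin, a large secreted clotting protein with von Willebrand factor domains that serves as a standard marker of plasmatocytes, the phagocytic haemocytes (3L, 13846054 to 13860001, 13948 bp). Its covered share was 41.0% and 50.1% in control and 21.9% and 4.29% in H2O2. Both control libraries lay above both H2O2 libraries, with means of 45.6% ± 6.44 (SD, n = 2) and 13.1% ± 12.4 (SD, n = 2), a difference (H2O2 minus control) of -32.5 percentage points and an exact permutation p of 0.333.

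Within 2 kb of Hml there were 12 and 13 summits in control and 10 and 2 in H2O2. Control was again the higher, but H2O2 replicate 1 came close to it and replicate 2 stood apart. The difference in covered share, H2O2 minus control, was -41.3 percentage points without H2O2 replicate 1 and -23.7 without replicate 2. In H2O2 replicate 1 22.8%, 10.3% and 32.5% of the left, middle and right of 3 equal parts were covered, and in replicate 2 it was 7.59%, 0% and 5.29%. The control shares of these parts were 44.5%, 25.1% and 53.4% in replicate 1 and 38.5%, 53.4% and 58.4% in replicate 2.

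Peaks at Hml recurred between the control libraries and in H2O2 replicate 1. Peaks of both control libraries shared 26.2% of the gene, those of both H2O2 libraries 0.523%, and the bases shared by both H2O2 libraries were under control peaks as well. Of the 10 summits in H2O2 replicate 1, 6 lay within 200 bp of a summit in control replicate 1 and 4 within 200 bp of one in control replicate 2. Of the 2 summits in H2O2 replicate 2, 0 lay that close to a summit of either control library. How many would lie so close by position alone, beside 12 and 13 control summits, was not tested. With lists of equal length Hml kept 12 and 13 summits in control and 2 and 1 in H2O2. H2O2 replicate 1 then covered 2.29% of the gene. The closest summits across the groups were 13 bp apart, at 3160 bp from the left end in H2O2 replicate 1 and 3147 bp in control replicate 2. A stretch on the right side of the gene, held peaks in every library, with control summits at 11559 and 11822 bp and H2O2 summits at 11398 and 11211 bp.

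Single peaks at Hml were of middle rank. The strongest stood at percentile 87.8 and 83.5 in control and 89.6 and 79.2 in H2O2, and the medians were 65.5 and 72.1 against 46.7 and 49.7. The strongest peak of control replicate 1 had its summit 167 bp past the right end of Hml and lay over CG8745 for 310 of its 455 bp. At a q-value of 1e-05 or less 1 peak was left in each control library, covering 0.860% and 2.36% of the gene, and none in H2O2, so the high share of Hml rests on peaks above that limit. The peak left in control replicate 1 was the one with its summit 167 bp past the right end of Hml. The neighbours carried little: Tsp68C, 737 bp to the left, was at 0 in the 4 libraries, and CG8745, 25 bp to the right, was covered over 4.51% and 1.22% in the control libraries against 4.70% and 0% after H2O2.

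**Figure D4:**
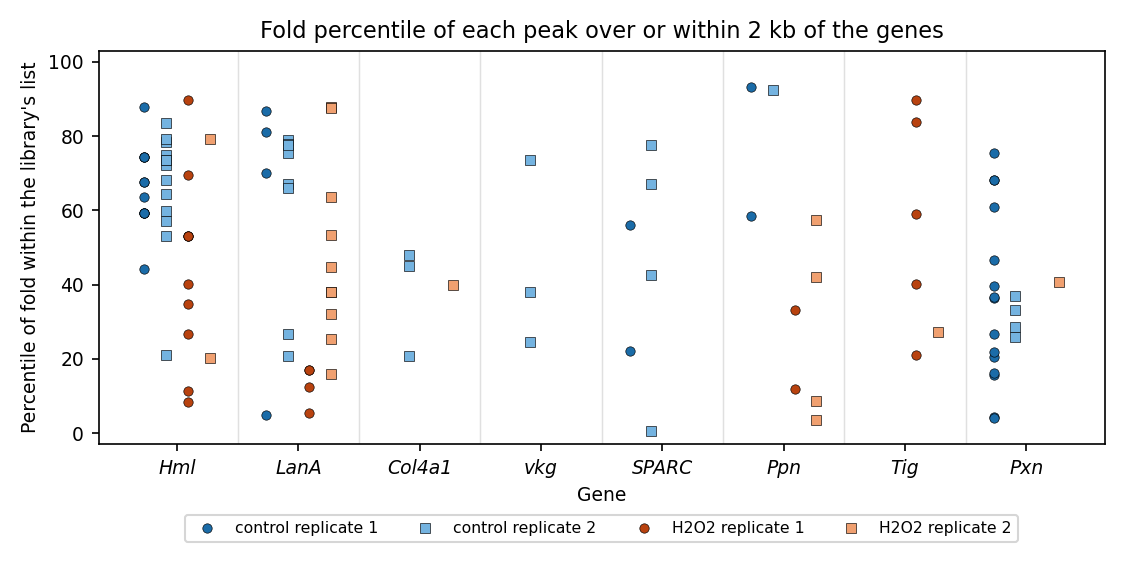
Fold percentile within its own library's list (vertical axis) of every peak over or within 2 kb of the 8 genes that have any, with 1 point per peak, blue for control and orange for H2O2. The control peaks at Ppn reach 93.1 and 92.3, while the 4 LanA peaks of H2O2 replicate 1 lie at or below 16.9.

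Peaks at the 10 genes recurred between the control libraries and hardly between the H2O2 libraries. Of the control replicate 1 peaks at these genes, 24 of 35 (68.6%) overlapped a peak of control replicate 2, and 22 of 36 (61.1%) did so the other way. Over all peaks of these lists the shares were 30.8% and 46.7%. In H2O2, 2 of 21 (9.52%) and 2 of 19 (10.5%) were met by the other replicate, where 24.5% and 39.7% of all peaks did. H2O2 peaks at the genes met control peaks in larger number: 11 and 13 of the 21 peaks of replicate 1 overlapped control replicates 1 and 2, as did 11 of the 19 peaks of replicate 2 for each control list. Nearly all of these lay at Hml and LanA. In H2O2 replicate 1 they numbered 7 and 9 at Hml and 4 and 4 at LanA. In H2O2 replicate 2 they numbered 1 and 1 at Hml and 8 and 9 at LanA. Control peaks covered 41.0% and 50.1% of Hml and 62.1% and 68.2% of LanA. Over all peaks, 16.3% and 8.07% of H2O2 replicate 1 and 23.7% and 14.9% of H2O2 replicate 2 overlapped control replicates 1 and 2. Wide peaks overlap more readily, and how far this sets the shares was not tested. All peaks shared by both H2O2 libraries lay at Hml or LanA, 1 at each gene.

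The other lists are read against the same shares of all protein-coding genes: 13.2% called in both control libraries, 9.19% in both H2O2 libraries, 4.98% covered more in control and 3.66% covered more in H2O2. These shares are not matched for gene length. The median length was 2163 bp over all genes, against 9130 bp for basement membrane and 9150 bp for matrix receptor genes. It was 4030 bp for collagen secretion and 3380 bp for haemocyte receptor genes. With so few genes in a list, 1 gene moves its share by several percentage points, and no list was tested. Of 13 genes for other basement membrane components and remodelling enzymes, both control libraries called 1, while both H2O2 libraries called 4, and 0 and 2 were covered more in control and in H2O2. Mmp2, a matrix metalloproteinase, was covered over 28.1% and 2.03% in the control libraries against 10.2% and 4.31% after H2O2. Mmp1, the other fly matrix metalloproteinase, was covered over 59.9% and 0% in the control libraries against 56.5% and 28.6% after H2O2. Ndg, the nidogen that links laminin and collagen IV, was covered over 2.50% and 8.67% in H2O2 and 0% in control, and the laminin alpha chain gene wb over 4.97% and 0.376% in H2O2 and 0% in control. The perlecan gene trol, the pericardin gene prc and Timp, the metalloproteinase inhibitor, had no summit within 2 kb in any library.

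Of 13 matched genes for collagen processing and secretion, beside the all-gene shares of 13.2%, 9.19%, 4.98% and 3.66%, both control libraries called 4, while both H2O2 libraries called 1, and 4 and 0 were covered more in control and in H2O2. Pdi, a protein disulphide isomerase of the endoplasmic reticulum, was covered over 38.8% and 52.2% in the control libraries against 11.4% and 27.3% after H2O2. KdelR, a receptor that retrieves proteins to the endoplasmic reticulum, was covered over 71.0% and 15.5% in control and 0% in H2O2. Rab10, a small GTPase of secretion, was covered over 21.0% and 16.2% in control and 0% in H2O2. The collagen prolyl hydroxylase gene PH4alphaEFB was covered over 6.79% and 10.9% in the control libraries against 0% and 5.68% after H2O2, and Tango1 and Plod had no summit within 2 kb in any library.

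Of 16 matrix receptor and adhesion genes each group called 2 in both of its libraries, with 1 covered more in each direction, counts near the shares of all genes (13.2% and 9.19% called, 4.98% and 3.66% covered more). Pax, for the adhesion scaffold paxillin, was covered over 13.6% and 3.42% in the control libraries against 1.52% and 0% after H2O2. The adaptor gene stck was covered over 62.5% in control replicate 1 and 0% in the other libraries, its call in control replicate 2 coming from a peak beside the gene. Vinc, for vinculin, was covered over 75.7% and 0% in the control libraries against 11.8% and 22.6% after H2O2. Dys, for dystrophin, had 9 summits in each H2O2 library and none in control, over a gene of 136204 bp of which 1.69% and 1.9% was covered.

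Phagocytic and haemocyte surface receptors gave 4 of 18 called in each group, with 3 covered more in control and 1 in H2O2, where 13.2% and 9.19% of all genes were called and 4.98% and 3.66% covered more. The receptor gene pes was covered over 25.2% and 5.89% in the control libraries against 0% and 3.26% after H2O2. Pvr, a receptor tyrosine kinase that haemocytes need to migrate, was covered over 1.35% and 12.0% in control and 0% in H2O2. The engulfment receptor gene drpr was covered over 1.84% and 8.82% in the control libraries against 1.30% and 0% after H2O2. Dscam1, an immunoglobulin-superfamily receptor gene, was covered over 2.36% and 0.489% in the control libraries against 9.32% and 4.01% after H2O2. NimC2 was covered over 20.0% and 0% in the control libraries against 9.99% and 14.6% after H2O2. NimC1, crq, Sr-CI and He, further plasmatocyte surface genes, had no summit within 2 kb in any library. Another such gene, eater, had 1 summit and 5.98% covered in control replicate 1 and 0 in the other libraries.

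Peaks do not measure expression, so the haemocyte label of the 10 genes could not be checked by RNA here. Of 9 plasmatocyte markers, 4 of which are among the 10 genes, both control libraries called 2 (Hml and Pxn), while both H2O2 libraries called 1 (Hml), beside 13.2% and 9.19% of all genes. Of 4 markers of crystal cells both control libraries called 0, while both H2O2 libraries called 1, PPO2, covered over 15.7% and 15.6%. The actin cross-linker gene cher was the 1 of 5 lamellocyte markers called in both libraries of each group. None of 5 fat body markers had a summit within 2 kb in any library.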

How the data were processed

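The deposited data are 4 lists of peaks, 1 per immunoprecipitated library and not pooled. Per the submitters' processing notes, MACS2 and Picard were used on dm6. No source used here gives the versions, the options or the background library. The authors' lists give each peak's interval and summit, a linear fold enrichment, a -log10 p-value, a -log10 q-value and a score. The deposited score was not used further, and the p-value only for the lowest value in each list.

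Peaks on the 6 arms were analysed with Python 3.11.15, numpy 2.4.6 and pandas 2.3.3. Gene positions came from the RefSeq table of Release 6, which gives no strand and no exons, so positions run from a gene's left end. The planned motif search was not run, since no sequence was used here. All values across all protein-coding genes were computed in the same way as for the 10 genes, with code tested on simulated data. For single genes the group labels of the 4 libraries were permuted exactly (two-sided). The 10 genes and the other lists were chosen with earlier results of these data known. All 10 are reported. From each other list up to 4 genes called in both libraries of a group were named, by the highest value of the lowest covered share. Genes named for having no summit, the gene eater, and neighbours that share no peak with a member, were picked with their values in view. Of 14 collagen secretion genes 13 were matched. Alternatives were a q-value of 1e-05 or less, lists of equal length, other windows, 200 bp around each summit, and leaving out each library.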

Additional observations from a re-analysis of the deposited data

How the results depend on the processing

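At a q-value of 1e-05 or less 4 members (Hml, LanA, SPARC and Ppn) were called in both control libraries and neither H2O2 library, in place of 1. The Hml call in control replicate 1 then rests on a peak with its summit 167 bp outside the gene. Of all protein-coding genes 3.68% were, in place of 7.02%. At that limit 0 members were called in both H2O2 libraries and 0 in these alone (0.963% and 0.0934% of all genes). None was covered more in H2O2 (0.151% of all genes). With lists of equal length, 2988 peaks each, 2 members were called in both H2O2 libraries in place of 4. Of all genes 5.16% were, in place of 9.19%. A window of 5 kb gave 2 members called in both control libraries and neither H2O2 library (vkg and SPARC), beside 9.12% of all genes. Leaving out each library in turn gave 1 to 2 such members, beside 7.73% to 14.1% of all genes. With 200 bp around each summit 3 members (Hml, SPARC and Pxn) were covered more in control in place of 5. The share of all genes was 3.92% in place of 4.98%. The differences, H2O2 minus control, of LanA and Ppn turned to 1.41 and 1.21 percentage points in this setting, which follows the summit counts. That of Col4a1 ran from -9.44 to 1.34 percentage points when each library was left out, and turned without control replicate 2, the only control library with a peak there. Of the other count alternatives 45 stayed within 1.5 times the value reported. The labels do not say that equal replicate numbers pair the libraries. The peak names carry a code that equal numbers share across the groups, whose meaning is not given in what was used here, and the deviations of equal numbers had a correlation of 0.0606 across 3737 genes. A replicate block leaves the mean differences as they are, -32.5 percentage points for Hml, with a smallest sign-flip p of 0.5. The unknown read depth limits what a missing peak can mean: a gene such as LanB1 or LanB2 without a peak had no signal past the caller's limit, and whether P-p38 was absent there is not shown.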

Other observations

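Some genes near the subject of the report were covered in 3 libraries and at 0 in control replicate 2. In the lists of the report these were Mmp1 (59.9% in control replicate 1, 56.5% and 28.6% in H2O2), Vinc (75.7%, 11.8% and 22.6%) and NimC2 (20.0%, 9.99% and 14.6%), noticed after their values were seen. Among the 13922 protein-coding genes, 31 were covered over at least 10% in the other 3 libraries and at 0 in control replicate 2. Mmp1 and Vinc are among these 31, while NimC2, at 9.99% in H2O2 replicate 1, falls just short of the limit. With H2O2 replicate 1 as the library at 0 there were 45 such genes, with control replicate 1 there were 8 and with H2O2 replicate 2 there were 7. None of the 10 genes was among them.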
